A study of Mus musculus with 6 samples.

Results

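The genes described here are 10 factors of the piRNA pathway, Mael, Piwil2, Mov10l1, Asz1, Tdrd1, Tdrd9, Tdrkh, Fkbp6, Ddx4 and Gpat2, chosen by name as PIWI, Tudor, nuage and mitochondrial factors and read through every probe set annotated to 1 of them. The choice was made with earlier results of these data known, so the counts below are not independent of it. The annotation gave 10 probe sets for 9 of the 10 genes, out of 45101 on the array, with a pair for Asz1 and none under the name of Fkbp6, which is therefore not analysed here. RNA came from 129/B6 hybrid mouse embryonic stem cells, grown with LIF on feeder fibroblasts or gelatin, and was measured on 6 arrays, 1 with and 1 without 4-hydroxytamoxifen (OHT) from each of 3 clones. Treated cells (OHT+) received 0.8 µM of OHT for 24 hours to remove the Polycomb subunit Rybp, and untreated cells (OHT-) kept it.

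The groups were Yaf2kd OHT+ (clones 3086 and 3087, Yaf2 mutant and depleted of Rybp), Yaf2kd OHT- (the same clones, Yaf2 mutant with Rybp wild type), Yaf2wt OHT+ (clone 3031, depleted of Rybp) and Yaf2wt OHT- (clone 3031, both genes wild type). The labels call the Yaf2 change both a knockdown and a mutation, and that of Rybp a knockout, a mutation and a depletion. No array came from treated cells that keep Rybp, so OHT itself and the loss of Rybp cannot be told apart, and with 1 Yaf2wt clone neither can Yaf2 status and clone. A lower signal can mean fewer cells that express a gene or less RNA in each cell, which these bulk samples cannot tell apart. Each of the 4 groups holds 1 or 2 clones, so the p-values measure the spread between these few samples alone.

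piRNAs are small RNAs of the germ line that guide PIWI proteins to the transcripts of transposable elements. Their precursors are unwound and cut at the mitochondrial surface and in nuage, granules of germ cells that are rich in RNA helicases and in Tudor proteins, which hold PIWI proteins by their methylated arginines. In the mouse the pathway is known from fetal and adult male germ cells, and embryonic stem cells are not its usual site. Rybp and Yaf2 are alternative subunits of variant Polycomb repressive complex 1, of which 1 form contains the DNA-binding proteins E2F6, MGA and MAX and is known to bind promoters of germline genes.

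For that reason the promoters of the 10 genes were searched for the letters CACGTG, the E-box that MAX dimers recognise, and TCCCGC, the core of E2F sites, on both strands. RefSeq promoter windows (GRCm38.p6) were found for 9 of the 10 genes, with Piwil2 missing, and the 250 bases before each gene start were read. CACGTG stood in a window of 6 of the 9 genes (Mael, Ddx4, Mov10l1, Tdrd1, Tdrd9 and Fkbp6), where 6.86% of all 27025 genes with a window hold it. Among the 12283 genes with at least as many CpG dinucleotides as the poorest of the 9, which had 8, the share was 10.5%. The same letters stood in 4 of 17 other piRNA pathway genes and in 6 of 21 meiotic chromosome genes with a window, and no test compared these counts. TCCCGC stood in 2 of the 9 (Mael and Ddx4), against 18.8% of all genes and 37.0% of those with at least 8 CpG. It stood in 3 of the 17 other piRNA pathway genes and in 10 of the 21 meiotic chromosome genes, again without a test. The 9 genes had a median of 19 CpG in their richest window, against 6 over all genes. These are matches of letters and show no binding. Shown here are the windows of Mael, Ddx4 and Mov10l1, which have the E-box and had higher OHT+ signal. Beside them are that of Tdrd9, which has the E-box but almost no signal, and that of Tdrkh, which has neither match. Tdrkh was also higher on every OHT+ array, as were Gpat2 and Asz1, whose windows are not shown and have neither match. Capitals mark CACGTG, and TCCCGC or its complement GCGGGA:
Mael, chr1:166238745-166238994, minus strand: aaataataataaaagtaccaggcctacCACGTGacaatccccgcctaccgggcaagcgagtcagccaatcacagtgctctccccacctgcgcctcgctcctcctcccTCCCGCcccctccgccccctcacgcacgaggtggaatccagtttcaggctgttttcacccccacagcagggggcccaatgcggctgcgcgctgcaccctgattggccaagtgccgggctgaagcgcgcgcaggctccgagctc
Ddx4, chr13:112652311-112652560, minus strand: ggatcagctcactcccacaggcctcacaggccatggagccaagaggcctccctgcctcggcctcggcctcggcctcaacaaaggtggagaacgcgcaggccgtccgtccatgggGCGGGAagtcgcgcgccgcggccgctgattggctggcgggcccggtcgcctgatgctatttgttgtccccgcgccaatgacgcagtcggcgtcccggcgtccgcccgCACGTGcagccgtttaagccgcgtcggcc
Mov10l1, chr15:88982744-88982993, plus strand: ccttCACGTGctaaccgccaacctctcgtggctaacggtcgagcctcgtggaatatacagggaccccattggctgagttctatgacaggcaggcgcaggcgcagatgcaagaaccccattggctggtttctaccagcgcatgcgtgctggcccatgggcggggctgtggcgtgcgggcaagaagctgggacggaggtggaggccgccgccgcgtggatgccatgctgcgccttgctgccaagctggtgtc
Tdrd9, chr12:111971309-111971558, plus strand: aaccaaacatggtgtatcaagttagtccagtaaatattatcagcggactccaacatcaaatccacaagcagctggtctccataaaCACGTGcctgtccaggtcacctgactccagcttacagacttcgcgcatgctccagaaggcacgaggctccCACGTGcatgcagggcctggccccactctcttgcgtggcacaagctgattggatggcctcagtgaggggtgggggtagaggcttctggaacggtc
Tdrkh, chr3:94412994-94413243, plus strand: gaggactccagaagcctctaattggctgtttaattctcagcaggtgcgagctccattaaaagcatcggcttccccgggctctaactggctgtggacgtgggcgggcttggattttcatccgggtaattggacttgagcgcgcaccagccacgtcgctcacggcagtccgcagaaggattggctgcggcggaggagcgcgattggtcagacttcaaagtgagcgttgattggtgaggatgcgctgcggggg

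Of 6 further strings, TTCCCGC and TCCCGCC, which overlap the E2F core, stood in 1 (Ddx4) and 2 (Ddx4 and Mael) of the 9 genes, against 4.38% and 11.0% of all genes and 8.62% and 22.1% of those with at least 8 CpG. CACGCG stood in 3 (Fkbp6, Mov10l1 and Tdrd1), against 8.66% of all genes and 18.1% of those with at least 8 CpG. The T-box letters GGTGTGA stood in 1 (Asz1), against 3.85% and 3.38%, and the MYB core CAACTG in 1 (Fkbp6), against 12.6% and 9.89%. TATAAA stood in 0 of the 9 genes, against 14.3% and 6.94%.

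The values are linear intensities, compared as log2 differences over 45037 probe sets other than controls. A probe set is called dim where its mean log2 signal lies below the median over all probe sets, an intensity of 96.6. The median replicate SD was 0.75 (log2) for dim probe sets and 0.19 for the others. No detection calls were given, so dim does not mean absent. Levels of different probe sets are not comparable with each other. The Rybp probe sets, both shared with the pseudogene Rybp-ps, separated the treatments on every array. 1421111_at was at 85.8 ± 27.7 (SD, n = 3) with OHT and 2014 ± 239 without it, and 1428219_at was at 3162 ± 332 with OHT and 242 ± 82.4 without it. The sources used here do not say which part of the gene each covers, so what the opposite directions stand for was not tested. The brighter Yaf2 probe set, 1429839_a_at, was at 297 and 293 in clone 3086 and at 278 and 238 in clone 3087, against 769 and 816 in clone 3031, each with OHT and then without it.

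All 3 clones were first compared with and without OHT, to read the response of these genes to a treatment aimed at Rybp. Mael, Ddx4 and Piwil2 rose with OHT in limma over all probe sets, by between 2.57-fold and 3.41-fold. Mov10l1, Gpat2 and Tdrkh were higher on every OHT+ array but did not pass, and the dim probe sets of Asz1 and Tdrd1 were higher in each clone without passing. Tdrd9 stayed near the bottom of the scale. In this comparison 3 of 10 probe sets rose and 0 fell, where 0.115% of all probe sets rose and 0.0244% fell. The calls rest on the fit's intensity trend: with 1 prior variance for all probe sets limma called 0 of 45037, and the adjusted p was 0.365 for Mael, 0.365 for Ddx4 and 0.522 for Piwil2, with the same differences. Every OHT+ array lay above every OHT- array for 8 of the 10 probe sets, against 6.13% of all probe sets. The reverse held for 0 of them, against 6.4%. All 6 probe sets that were not dim were among the 8, against 6.99% of such probe sets. At 9 of the 10 probe sets the signal was higher in each of the 3 clones, against 15% of all probe sets, and 4 were at least 2-fold higher in each clone, against 0.797%.

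**Figure D1:**
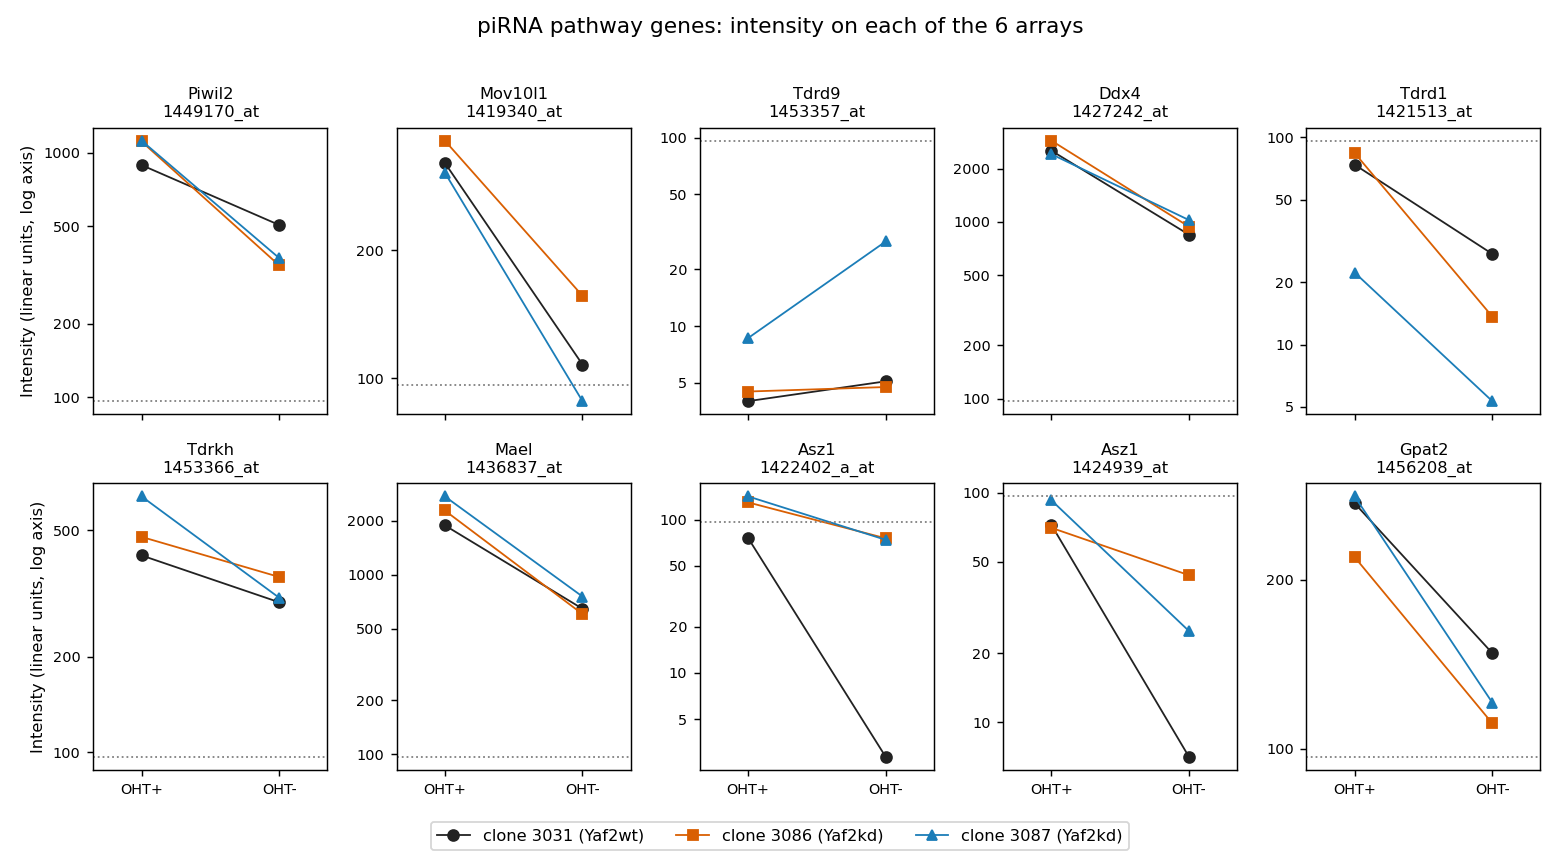
Intensity (log axis, linear units) of each of the 10 probe sets on the 6 arrays, OHT+ on the left and OHT- on the right of every panel; each line joins the 2 arrays of 1 clone, and the dotted line is the dim limit of 96.6. Lines descend to the right in all 3 clones in every panel except that of Tdrd9.

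Piwil2 encodes the PIWI protein that carries piRNAs in fetal and adult male germ cells and cuts transposon RNA. Its probe set 1449170_at was at 890, 1112 and 1120 in the OHT+ cells of clones 3031, 3086 and 3087, against 507, 346 and 371 in their OHT- cells. The lowest OHT+ array was above the highest OHT- array, with the smallest step in the Yaf2wt clone. The difference was 1.36 ± 0.17 (log2 ± SE, limma adjusted p 0.0182), a 2.57-fold higher mean. The Yaf2wt clone 3031 moved by 0.81, and the Yaf2kd clones 3086 and 3087 by 1.68 and 1.59. The call depended on single Yaf2kd arrays: the adjusted p was 0.196 and 0.110 without the OHT+ array, and 0.0557 and 0.0596 without the OHT- array, of clones 3086 and 3087 in that order.

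Among the RNA helicases, Ddx4, the mouse homologue of Drosophila vasa and a marker of germ cells, was the most precisely measured. Its probe set 1427242_at was at 2537, 2892 and 2423 in OHT+ cells of clones 3031, 3086 and 3087, against 847, 940 and 1025 in OHT- cells. The 2 groups were far apart and the clones lay close together within each. The difference was 1.48 ± 0.11 (log2 ± SE, limma adjusted p 6.0e-04), 2.79-fold.

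Mov10l1, the helicase that binds piRNA precursors and feeds them into processing, was at 322, 363 and 305 in OHT+ cells of the 3 clones in the same order, against 108, 156 and 88.3 in OHT- cells (1419340_at). The arrays did not overlap between treatments, and the untreated level of clone 3087 lay below the dim limit. The difference was 1.53 ± 0.25 (log2 ± SE) and did not pass (limma adjusted p 0.0848). With the clone as a block the adjusted p was 0.0238, and 4 of the 10 probe sets passed, among 101 probe sets called in place of 63. With dim probe sets left out it was 0.0257, and over 1 probe set for each gene 0.0474. It was 0.0439 without the untreated array of clone 3086. Without the whole of clone 3086 or of clone 3087 the adjusted p was lower still. Those fits kept a single array in each group and also called more of all probe sets than the 63 of the full data. Their lower values are therefore no firmer evidence for Mov10l1.

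Tdrd9, a helicase with a Tudor domain that works with PIWI proteins in fetal male germ cells, had almost no signal. Probe set 1453357_at was at 4.00, 4.49 and 8.64 in OHT+ cells and 5.09, 4.75 and 28.2 in OHT- cells of the 3 clones. The highest of the 6 values belonged to an untreated Yaf2kd culture, and the others overlapped. Its difference was -0.71 ± 0.98 (log2 ± SE, limma adjusted p 0.901), with a 95% interval from -2.91 to 1.49 that leaves both directions possible.

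The Tudor scaffold Tdrd1, which holds Piwil2 in nuage, was dim on every array. Its probe set 1421513_at was at 73.9, 84.2 and 22.3 in OHT+ cells of clones 3031, 3086 and 3087, against 27.4, 13.7 and 5.33 in OHT- cells. Each clone was higher with OHT, but the treated culture of clone 3087 lay below the untreated one of clone 3031, so the groups overlapped. The difference of 2.04 ± 0.74 (log2 ± SE) did not pass (limma adjusted p 0.534), and its size is uncertain at this signal.

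Tdrkh, a Tudor protein anchored in the mitochondrial outer membrane that takes part in trimming piRNAs, had the smallest difference of the 6 probe sets that were not dim. Probe set 1453366_at was at 416, 476 and 638 in OHT+ cells, against 296, 356 and 306 in OHT- cells. The groups did not overlap, and the widest step was that of clone 3087. The difference was 0.66 ± 0.17 (log2 ± SE, limma adjusted p 0.299), or 1.58-fold.

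Mael, a nuage protein with an HMG box that is needed for transposon silencing, gave the largest difference among the 3 that passed. Its probe set 1436837_at was at 1881, 2275 and 2726 in OHT+ cells of clones 3031, 3086 and 3087, against 645, 603 and 755 in OHT- cells. The lowest treated value was more than 2-fold above the highest untreated one. The difference was 1.77 ± 0.13 (log2 ± SE, limma adjusted p 7.37e-04), 3.41-fold.

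The mitochondrial factors were Asz1, a germ cell protein of the mitochondrial surface that organises nuage, and Gpat2, a mitochondrial protein of the acyltransferase family that is needed for piRNA production. Asz1 probe set 1422402_a_at was at 76.0, 130 and 142 in OHT+ cells of clones 3031, 3086 and 3087, against 2.83, 75.6 and 73.9 in OHT- cells. The second, 1424939_at, was at 72.6, 70.5 and 92.9 with OHT, against 7.07, 43.8 and 25.0 without it. In both, the untreated Yaf2wt array stood far below all others, and the treatments did not overlap.

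The Asz1 differences were 2.16 ± 0.72 and 1.98 ± 0.60 (log2 ± SE, limma adjusted p 0.485 and 0.416). Clone 3031 moved by 4.75 and 3.36, clone 3086 by 0.78 and 0.69, and clone 3087 by 0.94 and 1.90. With an offset of 50 added to the intensities, the values of clone 3031 became 1.25 and 1.10, so the size there rests on a signal near the bottom of the scale. Without clone 3031 the first probe set was at 0.86.

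Gpat2 was at 274, 220 and 282 in OHT+ cells of clones 3031, 3086 and 3087, against 148, 111 and 121 in OHT- cells (1456208_at). No OHT- array reached the lowest OHT+ array, and the 3 clones moved by similar amounts of 0.89, 0.99 and 1.22 (log2). The difference of 1.03 ± 0.22 (log2 ± SE), 2.05-fold, did not pass (limma adjusted p 0.193).

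**Figure D2:**
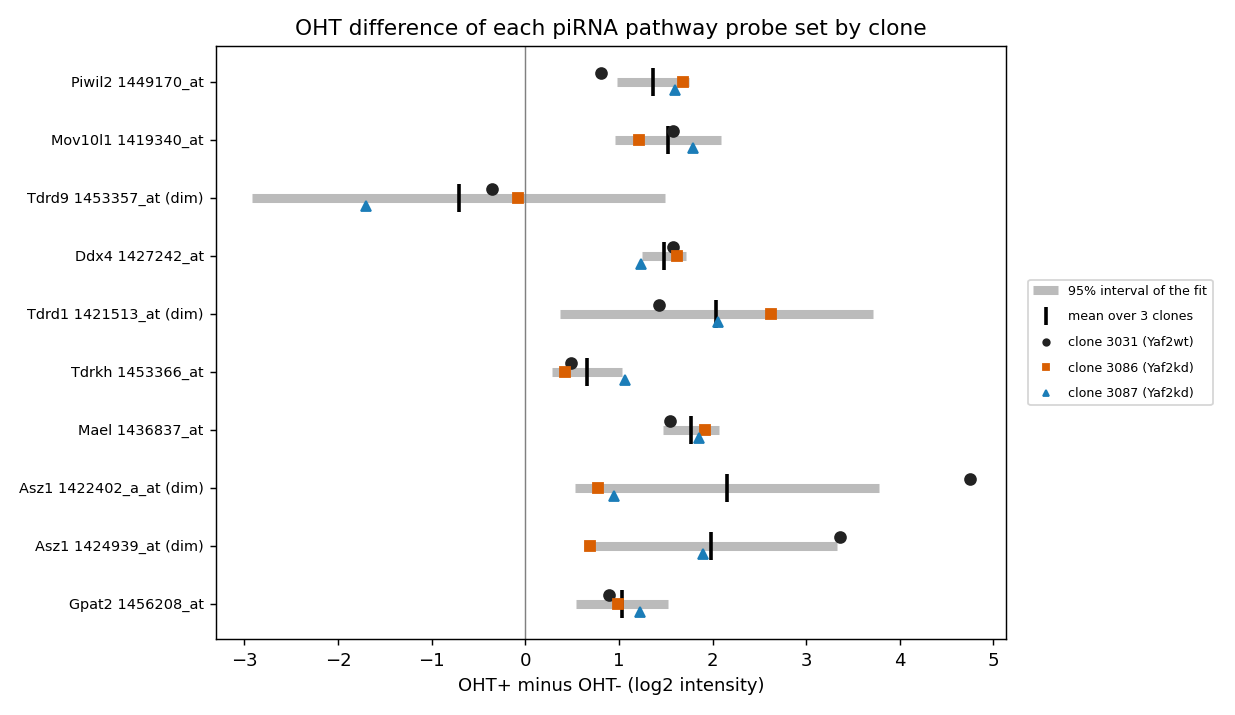
OHT+ minus OHT- on the log2 scale for each probe set, with 1 point for each clone, a black bar for the mean over the 3 clones and a grey band for the 95% interval of the fit. Bands are narrow for Ddx4 and Mael and wide for the dim probe sets of Tdrd9, Tdrd1 and Asz1.

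Across the 6 probe sets that were not dim, the OHT difference ran from 0.49 to 1.58 (log2) in clone 3031, from 0.42 to 1.92 in clone 3086 and from 1.06 to 1.85 in clone 3087. The median over all probe sets was -0.0107, -0.0080 and -0.0046 in the same clones. Against signal, these 6 lie among the probe sets where the cloud of all differences is narrow, while the other 4 lie where it is wide.

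**Figure D3:**
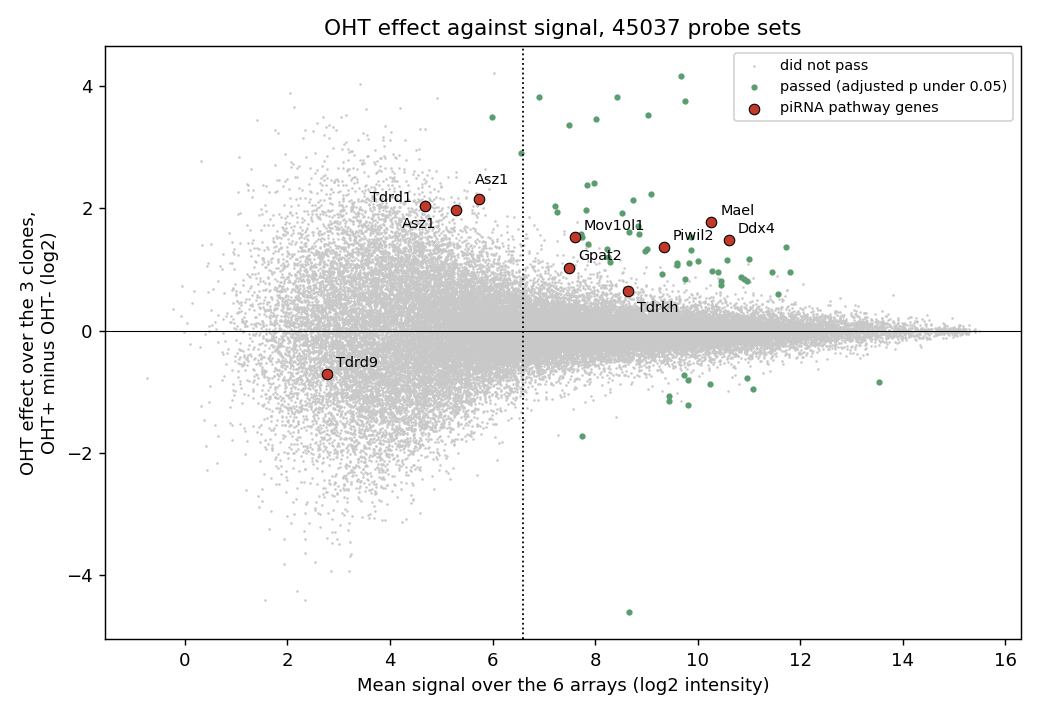
OHT effect (log2, vertical) against mean signal over the 6 arrays (log2 intensity, horizontal) for 45037 probe sets; green points passed, red points are the piRNA pathway genes and the dotted line is the dim limit. Of the red points, Mael, Ddx4 and Piwil2 passed, and Asz1, Tdrd1 and Tdrd9 lie left of the dotted line.

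The OHT response on a background of reduced Yaf2 was read in the Yaf2kd clones alone. Mael, Piwil2 and Ddx4 rose there too, in a model that shares its Yaf2kd arrays with the fit over the 3 clones. Of the 10 probe sets 3 rose and 0 fell, against 0.0355% and 0.00222% of all probe sets. The differences were 1.88 ± 0.17 for Mael, 1.64 ± 0.16 for Piwil2 and 1.43 ± 0.14 for Ddx4 (log2 ± SE, limma adjusted p 0.0229, 0.0322 and 0.0330 in that order). With 1 prior variance none of the 3 passed (limma adjusted p 0.442, 0.428 and 0.480). All 3 lost the call without either Yaf2kd OHT+ array, and Piwil2 and Ddx4 lost it without either Yaf2kd OHT- array. With an offset of 50 they were at an adjusted p of 0.0758, 0.0939 and 0.0951.

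In the Yaf2wt clone, with 1 array against 1 and no test, 6 of the 10 probe sets were at least 2-fold higher with OHT, against 9.79% of all probe sets. These were Ddx4 (1.58 on the log2 scale), Mov10l1 (1.58), Mael (1.54), Tdrd1 (1.43) and both of Asz1. Of the 6 probe sets that were not dim, 3 met this, against 0.764% of such probe sets. In clone 3086 5 of the 10 were at least 2-fold higher, against 10.7% of all probe sets, and in clone 3087 8 were, against 11.7%.

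Whether the OHT effect depended on Yaf2 was read from the difference between the Yaf2kd and the Yaf2wt effect. By limma 0 of the 10 probe sets passed, 2 had an unadjusted p under 0.05, and among all probe sets 0% passed in either direction (1077 had an unadjusted p under 0.05). The difference for Piwil2 was 0.82 (log2, 95% interval 0.18 to 1.47), with the larger effect in the Yaf2kd clones. It was 0.34 (-0.33 to 1.01) for Mael, -0.15 (-0.73 to 0.42) for Ddx4, 0.25 (-0.64 to 1.14) for Tdrkh, 0.22 (-0.96 to 1.39) for Gpat2 and -0.0767 (-1.45 to 1.30) for Mov10l1. For Asz1 it was -3.89 (-6.07 to -1.70) and -2.07 (-4.75 to 0.60), where the untreated Yaf2wt signals were 2.83 and 7.07. The intervals are not adjusted for the number of probe sets, and the fit takes the spread of the Yaf2kd arrays for the single Yaf2wt ones.

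Yaf2kd against Yaf2wt, adjusted for OHT, asks whether the clones with less Yaf2 differ at these genes. By limma 0 of the 10 probe sets passed, 1 had an unadjusted p under 0.05 (Asz1 1422402_a_at, at 2.78), and 0% of all probe sets passed (4032 had an unadjusted p under 0.05). That dim Asz1 value was 0.84 without the untreated Yaf2wt array, whose signal was 2.83, and 4.73 without the treated one, and 0.90 with the offset of 50. The difference was 0.14 (log2, 95% interval -0.11 to 0.39) for Ddx4, 0.23 (-0.0784 to 0.55) for Mael and -0.0863 (-0.49 to 0.32) for Piwil2. For Mov10l1 it was 0.0870 (-0.51 to 0.69), for Tdrkh 0.28 (-0.12 to 0.68) and for Gpat2 -0.25 (-0.77 to 0.27). A difference between the Yaf2kd and the Yaf2wt arrays was not detected at the 6 brighter probe sets. The Yaf2 probe sets themselves did not pass either. They were at -1.52 ± 0.16 (1429839_a_at) and -1.41 ± 0.17 (1423399_a_at; log2 ± SE, limma adjusted p 0.163 and 0.167). A comparison that does not call Yaf2 itself cannot show that these genes are unchanged. The fit has no clone term and counts both arrays of a clone separately, so these intervals do not measure the spread between clones of a genotype.

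Other genes of the pathway were taken from a list of 26, of which 23 had a probe set. On the brightest probe set of each gene 17 were higher and 6 lower with OHT, 1 rose and 0 fell by limma, and the median difference was 0.19 (log2). For the 9 genes described above the same count was 8 higher and 1 lower, 3 rose, and the median was 1.48. Both lists were chosen with earlier results of these data known, so their contrast is not independent of that choice. Over all 18193 genes the median was -0.0036, and 0.187% rose. Every OHT+ array lay above every OHT- array for 9 of the 23 and 7 of the 9 genes, against 7.49% of all genes. The reverse held for 3 of the 23 (Exd1, Pnldc1 and Mov10) and 0 of the 9, against 7.09% of all genes.

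The 1 that rose was Stk31, which encodes a germ cell kinase with a Tudor domain. Its probe set 1454138_a_at was at 945, 839 and 713 in OHT+ cells of clones 3031, 3086 and 3087, against 374, 265 and 350 in OHT- cells. The second, 1425317_x_at, was at 820, 824 and 824 with OHT, against 349, 235 and 194 without it. The treatments were well apart on both, with differences of 1.34 ± 0.15 and 1.71 ± 0.18 (log2 ± SE, limma adjusted p 0.0104 and 0.00620).

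The brightest that did not pass were Hsp90aa1, a chaperone that PIWI proteins depend on, at 0.20 ± 0.09 (log2 ± SE), Dnmt3l, a cofactor of de novo DNA methylation, at 0.42 ± 0.08, and Wdr77, the partner of the arginine methyltransferase Prmt5, at 0.16 ± 0.08. Each value is that of the gene's brightest probe set. Other Hsp90aa1 probe sets were at 0.0397 ± 0.0715 (1438902_a_at) and 0.12 ± 0.07 (1426645_at). Its dim ones were at 0.0654 ± 0.58 (1441827_x_at) and -1.47 ± 0.63 (1433251_at). Other Wdr77 probe sets were at 0.11 ± 0.10 (1430289_a_at) and 0.14 ± 0.11 (1434552_at), and none of these passed. The genes named next were chosen after their values were seen. The PIWI gene Piwil1 was dim throughout, at 50.6, 95.2 and 53.4 in OHT+ cells, against 4.61, 10.8 and 11.1 in OHT- cells of clones 3031, 3086 and 3087. All its treated values were above all untreated ones, with a difference of 2.95 ± 0.64 (limma adjusted p 0.208). Btbd18, a regulator of piRNA cluster transcription in the testis, was at 1.52 ± 0.33 (limma adjusted p 0.217) and dim without OHT. The Tudor gene Rnf17 was higher with OHT on all arrays at each of its 4 probe sets, by 0.37 to 0.64, and none passed. The trimming enzyme gene Pnldc1 was at -0.39 ± 0.14, Exd1, a partner of Tdrd12, at -0.50 ± 0.25, and the helicase gene Mov10, a paralogue of Mov10l1, at -0.16 ± 0.11 (1416380_at), with every OHT+ array below every OHT- array and none passing. A less bright Mov10 probe set, 1447376_at, was at -0.52 ± 0.40, overlapped between treatments and was higher with OHT in clone 3087.

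**Figure D4:**
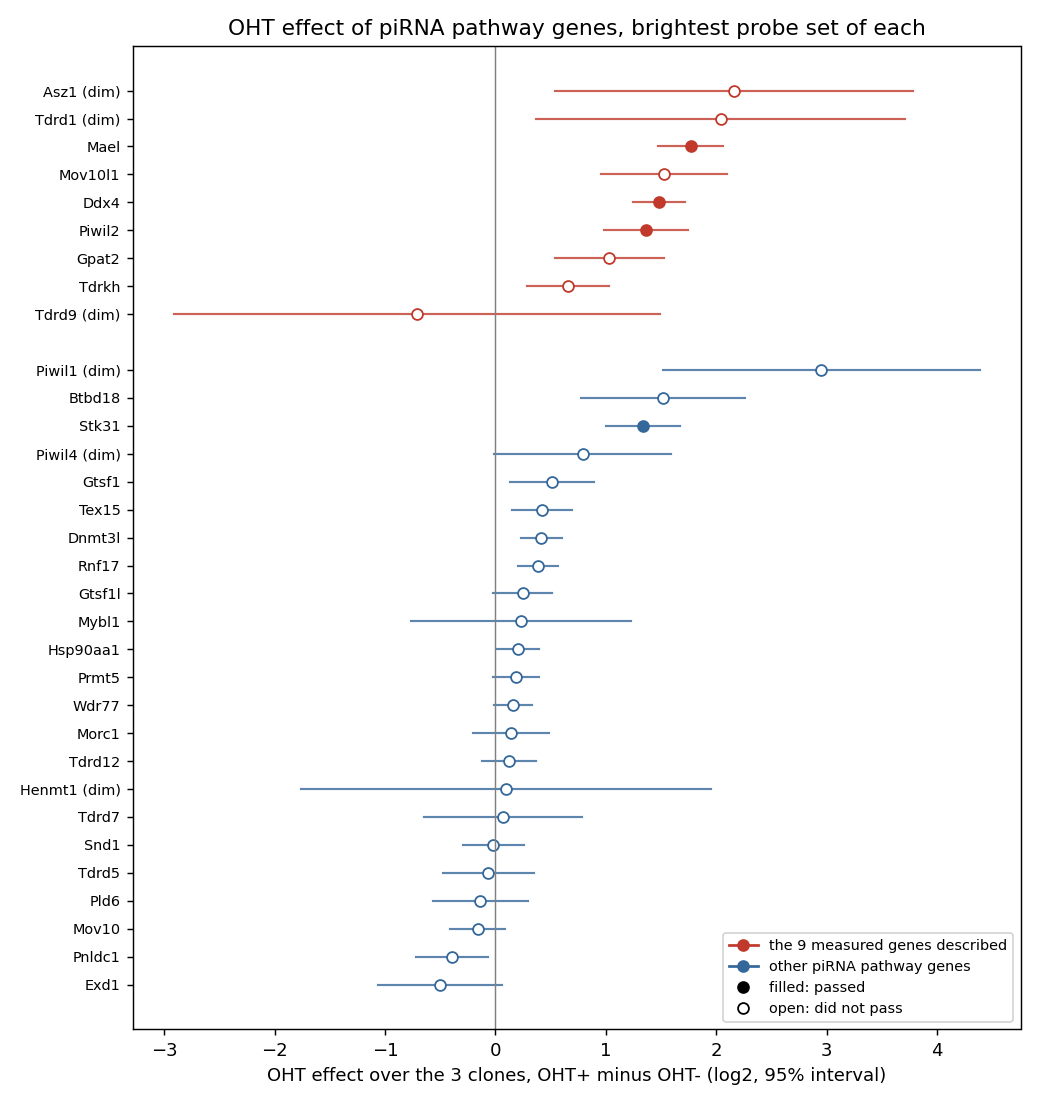
OHT effect over the 3 clones (log2, with its 95% interval) for the brightest probe set of each pathway gene, the 9 measured genes in red above and the 23 others in blue below; filled points passed. Filled points are Mael, Ddx4, Piwil2 and Stk31.

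The meiotic chromosome genes, another germline list, had 23 measured members on the same arrays, of which 16 were higher and 7 lower. Of these 3 rose by limma (Syce1, Tex11 and Stra8), against 0.187% of all genes, and the median was 0.68 (log2). For 10 of the 23 every OHT+ array lay above every OHT- array, against 7.49% of all genes. The reverse held for 0, against 7.09%. Syce1, a part of the synaptonemal complex, was at 2.23 ± 0.13 (log2 ± SE, limma adjusted p 1.48e-04). No test compared the lists with each other.

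Markers of the labelled cell type were present in both conditions. Of 8 embryonic stem cell genes 8 were above the dim limit, 6 were higher and 2 lower, and 1 rose, Fbxo15 (1.36 ± 0.10 on the log2 scale, limma adjusted p 8.18e-04). The brightest, Dppa5a, near the top of the intensity scale, was at 0.0721 ± 0.0748. Of the 8, 6 had an unadjusted p under 0.05, against 1803 of 18193 genes, and 4 were higher on every OHT+ array, against 7.49% of genes. Besides Fbxo15 these 4, named after their values were seen, were Nanog at 0.42 ± 0.08, Esrrb at 0.35 ± 0.12 and Sox2 at 0.24 ± 0.07 (log2 ± SE, limma adjusted p 0.129, 0.488 and 0.418). The 2 lower ones were Utf1 at -0.27 ± 0.09 and Pou5f1 at -0.18 ± 0.13 (limma adjusted p 0.483 and 0.773). Utf1, 1 of the 6, was lower on every OHT+ array, as were 7.09% of genes. Among 14 feeder fibroblast markers 10 were higher and 4 lower with OHT and 0 passed by limma (4 had an unadjusted p under 0.05). Their summed intensity lay between 18110 and 21094 in OHT+ cells and between 17489 and 22682 in OHT- cells, and none was at 0. That sum is mostly Fn1, at -0.0264 ± 0.11, Acta2, at 0.31 ± 0.09, and Tagln, at -0.26 ± 0.15 (log2 ± SE), whereas the median over the 14 was 0.34. Among the less bright ones, named after their values were seen, the growth factor receptor Pdgfrb was at 1.34 ± 0.31 (limma adjusted p 0.246) and the collagens Col1a2 and Col1a1 at 0.47 ± 0.16 and 0.67 ± 0.23 (0.486 and 0.499). Pdgfrb and Col1a2 were higher on every OHT+ array than on any OHT- array. Their part in the differences of the piRNA pathway genes was not tested.

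Of the other germ cell lists none had a member that passed. The 8 spermatid markers were all dim, with a summed intensity between 282 and 334 in OHT+ cells and between 243 and 332 in OHT- cells, and the brightest, Prm1, was at -0.0887 ± 0.36. Of 8 oocyte markers 7 were dim, and their sum lay between 513 and 615 with OHT and between 432 and 499 without it. The brightest, Zp3, was at 0.0111 ± 0.20. In the spermatid and the oocyte list alike 6 of 8 were higher and 2 lower, with medians of 0.18 and 0.39 (log2). Every OHT+ array lay above every OHT- array for 1 of 8 in each (Spaca1 and Zp1), against 7.49% of all genes. The reverse held for 0 in each, against 7.09%. Primordial germ cell markers (7 measured, 5 higher) summed to between 9634 and 12932 with OHT and between 8804 and 11770 without it, with Ifitm3 at 0.0712 ± 0.14. Of these 7, 3 had an unadjusted p under 0.05, against 1803 of 18193 genes. They are named for that: Prdm14 at 0.81 ± 0.18, Dppa3 at 0.61 ± 0.11 and Kit at 0.31 ± 0.13 (log2 ± SE, limma adjusted p 0.234, 0.120 and 0.592). All 3 were higher in each clone. The 2 lower markers, Prdm1 at -0.36 ± 0.23 and Dnd1 at -0.32 ± 0.16 (limma adjusted p 0.743 and 0.677), were lower in each clone. Every OHT+ array lay above every OHT- array for 2 of the 7 (Prdm14 and Kit), against 7.49% of all genes. The reverse held for 1 (Prdm1), against 7.09%. Spermatogonial markers (6 measured, 2 higher) summed to between 5870 and 8430 with OHT and between 5226 and 8376 without it, a sum that is mostly Upp1, at 0.23 ± 0.12. The other 5 included 4 that were lower, of which Gfra1 had the list's only unadjusted p under 0.05 (-0.52 ± 0.22, limma adjusted p 0.608), and the median over the 6 was -0.0868. No member of these 4 lists was at 0, and their part in the result was not tested.

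The genes with the profile most like the mean of the 9 measured genes over the 6 arrays, by Pearson correlation among 11153 genes that were not dim, were Lpar1 (0.997), Emilin3 (0.993), Adgrb2 (0.992), Snai3 (0.990) and Asf1b (0.989). The 6 arrays form an OHT+ and an OHT- set, so such a correlation depends largely on how cleanly a gene separates them. The mean also includes the dim Asz1, Tdrd1 and Tdrd9, whose spread enters the order of the clones. Untreated Asz1 (1422402_a_at) was at 2.83 in clone 3031, against 75.6 and 73.9 in clones 3086 and 3087. All 5 genes were likewise lowest in untreated clone 3031, where Piwil2 and Gpat2 had their highest untreated value. The ranking therefore rests in part on signals near the bottom of the scale. None of these 5 passed in the OHT effect over the 3 clones, where they were at 0.52, 0.95, 0.52, 0.72 and 0.28 (log2) in that order.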

How the data were processed

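The authors deposited linear intensity values of 45101 probe sets, more than the 430A 2.0 array named by the series holds. Affymetrix Expression Console and RMA are listed, without role or version, per the submitters' processing notes. The deposited intensities run from 0.140 to 45795 with a median of 102, and once sorted they are identical between arrays, as after quantile normalization. Of the probe sets, 34958 were annotated to 1 symbol, 932 to several and 9211 to none, and 99.4% of the first matched RefSeq gene identifiers (GRCm38.p6, for names). After 64 control probe sets were left out, log2 intensities of 45037 were fitted in limma 3.58.1 (R 4.3.3; lmFit, eBayes) with an intensity trend, since the spread of replicates falls with signal. The trend was chosen with an earlier fit of these data known, which used none and called nothing. Benjamini-Hochberg adjustment ran over all of them, with a threshold of 0.05. The OHT and Yaf2 effects came from a model of both terms (3 residual degrees of freedom), and the Yaf2kd effect and the difference of effects from a model of the 4 groups (2).

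The pairing comes from the labels, which put each OHT+ array beside an OHT- array of the same clone. Over probe sets that were not dim, residuals of the 2 arrays correlated at 0.11 in clone 3086 and 0.0054 in clone 3087. Between these clones the OHT+ array of 3086 and the OHT- array of 3087 correlated at -0.26, and the opposite pair at -0.18. Arrays of the same clone were thus more alike than arrays of different clones, and the main fit has no clone term. Arrays have no read depth, so precision is limited by their number, and no scan batch is given by the labels. Genes, lists and settings were chosen with earlier results of these data known. Named were all member probe sets, Rybp, Yaf2, the other pathway genes that passed or were the 3 brightest that did not, the 5 most similar profiles, and in each marker list those that passed and the brightest. Alternatives were a single prior variance, no dim probe sets, 1 probe set for each gene, an offset of 50, cyclic loess, the clone as a block, and each array or clone left out.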

Additional observations from a re-analysis of the deposited data

How the results depend on the processing

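The count of probe sets called for the OHT effect over the 3 clones moved from 63 to 0 with a single prior variance (2956 at an unadjusted p under 0.05), to 97 without dim probe sets, to 101 with the clone as a replicate block, and to 18, 205 and 293 without clone 3031, 3086 and 3087. Leaving out 1 array at a time gave 14 to 53, with 14 and 17 without the Yaf2wt OHT+ and OHT- array and 21 and 17 without the Yaf2kd OHT+ array of clone 3086 and 3087, and 2 to 3 of the 10 piRNA pathway probe sets, where the full data gave 3. With the single prior variance 0 of the 10 passed (8 at an unadjusted p under 0.05), and the adjusted p was 0.365 for Mael, 0.365 for Ddx4 and 0.522 for Piwil2. In the Yaf2kd cells the count of 17 became 0 with a single prior variance (2759 at an unadjusted p under 0.05), 35 without dim probe sets, 9 over 1 probe set for each gene, 4 with the offset, 65 with the clone as a block, and 0 to 17 without 1 array. The pathway's 3 became 0 with a single prior variance (7 at an unadjusted p under 0.05), 0 with the offset and 0 to 3 without 1 array. The Yaf2 effect had 0 to 8 calls without 1 array (8 without the untreated array of clone 3086), with 0 at these genes. The block changed no call among the 10 probe sets other than that of Mov10l1. Directions turned only when 1 array was left out, in values that did not pass: Tdrd9 ran from -1.39 to 0.0738 over the 3 clones, from -2.18 to 0.39 in Yaf2kd cells and from -1.83 to 0.74 in the difference of effects; Mov10l1 from -0.0952 to 0.26 in the Yaf2 effect and from -0.49 to 0.34 in the difference; Piwil2 from -0.50 to 0.33 in the Yaf2 effect; and Tdrd1 from -0.0470 to 1.87 in the difference. The cause was not tested. The difference of effects could not be fitted without a Yaf2wt array, and dim probe sets (Tdrd1, Tdrd9, Asz1) have no value where they are left out. Their low signal limits what these arrays show for those genes.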
